A study of Mus musculus with 8 samples.

Results

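The transcripts described here were those of 5 mucins, *Muc1*, *Muc4*, *Muc5b*, *Muc16* and *Muc20*, and of mesothelin (*Msln*), 6 of the 37310 genes in a table of RNA-seq counts from NMuMG cells, an immortal epithelial line from the mouse mammary gland. They were picked by symbol, because *Muc5b* was higher in the libraries labelled knockout, so the differences of these 6 genes between genotypes are a description with no p-value, whereas genes outside them were tested. The table held 8 libraries, 2 of each of 4 groups: control cells, control cells given TGF-β1 at 10 ng/ml for 2 h, cells edited at *Lnc-Nr6a1*, and edited cells given the same TGF-β1 treatment. The editing deleted the start region of *Lnc-Nr6a1*, a long non-coding RNA, with CRISPR/Cas9 guides in its promoter and its first exon, and clones were grown from sorted cells, so that clone and deletion cannot be told apart. All cells grew in medium with serum and insulin. The study's methods call the 2 libraries of a condition biological replicates without saying how the cultures were separated, and the p-values measure only the spread between these libraries.

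Mucins are long glycoproteins whose serine- and threonine-rich stretches carry dense O-linked sugars. Gel-forming mucins such as Muc5b, a main component of airway mucus, are secreted, whereas Muc1, Muc4 and Muc16 span the membrane at the apical side of epithelia and shed their outer part. Muc20 is a smaller membrane mucin. Mesothelin is a surface glycoprotein held by a lipid anchor, made by mesothelial cells and by several carcinomas, and it binds the sugars of MUC16. TGF-β is a cytokine that drives epithelial cells of this line towards a mesenchymal state.

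The libraries held between 4297832 and 13574397 counts. The label was first checked by the counts of *Lnc-Nr6a1* (listed as *Gm13507*), which were 3 and 14 in control cells and 25 and 35 after TGF-β. Those labelled knockout held 11 and 7 counts untreated, and 0 in both libraries after TGF-β. In untreated cells these counts overlapped between labels and did not bear out the knockout label. Every genotype difference below is therefore between libraries by label. *Mal2* and *Fam111a* were listed at 0 counts in all 4 libraries labelled knockout and at 52 or more counts in each control library. The epithelial keratins *Krt8* and *Krt18* and the junction gene *Cdh1* were expressed in all 8 libraries (*Cdh1* at 193 to 400 CPM), whereas the junction genes *Cldn3* and *Cldn7* and the epithelial splicing factor *Esrp1* were at 0 in all 8 libraries, as were 7 of 11 luminal and milk markers, among them the caseins *Csn1s1* and *Csn2*.

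The promoters of the 4 members with enough counts to test are printed, as these genes stood at different levels and varied in their difference between genotypes. Each runs from 250 bases before to 50 bases after the annotated start, read 5′ to 3′ on the strand of the gene from the NCBIM37 (mm9) genome with GENCODE vM1 positions. Capitals mark matches, on either strand, to letters that proteins of several families are known to bind: TATAAA (the TATA box), TGTTTAC and TGTTTGC (forkhead factors), CAGACA (SMAD proteins), CACCTG (an E-box of the SNAI and ZEB repressors) and TGANTCA (AP-1).
Muc5b, chr7:149024725-149025024, plus strand: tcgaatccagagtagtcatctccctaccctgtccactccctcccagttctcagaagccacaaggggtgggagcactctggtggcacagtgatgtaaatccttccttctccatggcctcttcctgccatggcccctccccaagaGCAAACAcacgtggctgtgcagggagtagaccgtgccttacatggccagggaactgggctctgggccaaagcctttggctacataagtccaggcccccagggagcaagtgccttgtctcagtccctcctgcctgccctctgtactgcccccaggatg
Muc4, chr16:32735722-32736021, plus strand: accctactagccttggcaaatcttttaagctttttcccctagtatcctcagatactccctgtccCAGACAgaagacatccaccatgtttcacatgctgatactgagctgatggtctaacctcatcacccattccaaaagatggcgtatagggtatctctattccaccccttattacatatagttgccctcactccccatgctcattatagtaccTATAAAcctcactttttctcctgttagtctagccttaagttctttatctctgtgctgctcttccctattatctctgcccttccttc
Muc1, chr3:89032729-89033028, plus strand: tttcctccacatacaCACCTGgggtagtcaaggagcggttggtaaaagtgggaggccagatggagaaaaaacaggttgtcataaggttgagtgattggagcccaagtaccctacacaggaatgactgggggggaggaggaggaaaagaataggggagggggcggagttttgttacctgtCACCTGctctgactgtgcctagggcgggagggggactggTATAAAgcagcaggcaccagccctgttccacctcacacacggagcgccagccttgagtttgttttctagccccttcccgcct
Msln, chr17:25891223-25891522, minus strand: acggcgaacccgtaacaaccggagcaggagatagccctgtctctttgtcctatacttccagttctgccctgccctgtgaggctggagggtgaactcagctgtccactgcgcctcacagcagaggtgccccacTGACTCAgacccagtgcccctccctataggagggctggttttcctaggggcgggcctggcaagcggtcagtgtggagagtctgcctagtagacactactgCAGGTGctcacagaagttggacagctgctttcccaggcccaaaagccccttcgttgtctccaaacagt

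The 4 windows differed in base composition and shared no motif across all of them. GC content was 59.0% at *Muc5b*, 58.7% at *Msln*, 55.3% at *Muc1* and 43.7% at *Muc4*, against a median of 55.0% over 22375 promoters of the same length. The *Muc1* and *Muc4* windows held TATAAA, 32 and 36 bases before the start, letters found in 13.4% of all promoters. *Muc5b* held TGTTTGC 107 bases before the start (4.72% of all promoters), and TGTTTAC was in none of the 4 windows and in 3.11% of all. *Msln* held CACCTG 18 bases (19.9% of all promoters) and TGANTCA 118 bases (6.93%) before the start, and *Muc1* held CACCTG 235 and 71 bases before it. CAGACA, in 19.0% of all promoters, was found 186 bases before the start of *Muc4* and in none of the other 3 windows. These matches say only which letters are present.

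The coding sequences differed in composition. Serine, threonine and proline together made up 44.1% of the 631 residues encoded by the *Muc1* transcript, 44.8% of 3470 for *Muc4*, 33.8% of 4800 for *Muc5b* and 43.5% of 688 for *Muc20*. Mesothelin, with 17.1% of 625 residues, lay near the median of 18.8% over 21635 proteins. The annotated *Muc16* model was short, with 1035 exonic bases and 258 residues. Serine, threonine and proline made up 20.2% of this model, a share that 36.8% of all proteins reached. Any part of *Muc16* outside the model is not covered by these values. Repeats within a transcript affect how its reads are placed, and 18.5% of the 75-base windows of the *Muc5b* transcript occurred again within it, all between transcript bases 4740 and 10485. A window present in 5 copies, from transcript base 4744 to 4818, is printed in lower case to show this repeat.
Muc5b repeat: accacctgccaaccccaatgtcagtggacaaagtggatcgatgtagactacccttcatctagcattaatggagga
No *Muc5b*, *Muc1* or *Msln* window occurred in the transcript of another gene, whereas 1.47% of *Muc4* and 4.58% of *Muc20* windows did.

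The 4 tested members differed widely in level and kept the same order in all 4 groups. CPM values (counts scaled by TMM library sizes) were divided by the exonic length of each gene to compare genes. *Msln* was by far the most abundant, at 258 ± 5.10 CPM per kb in untreated control cells (SD, n = 2). *Muc1* followed at 12.0 ± 1.38 CPM per kb, then *Muc5b* at 0.179 ± 0.105 and *Muc4* at 0.0206 ± 0.000173 CPM per kb. On means over all 8 libraries, *Msln* ranked 177 and *Muc1* 5763 of 13028 tested genes. In the untreated libraries labelled knockout the levels were 359 ± 14.7 for *Msln*, 9.49 ± 1.73 for *Muc1*, 2.37 ± 0.978 for *Muc5b* and 0.243 ± 0.0247 CPM per kb for *Muc4*. Neighbours in this order differed by more than their spread in each of the 4 groups. On its short annotated model, *Muc16* had 0 counts in every library. This allows a level of up to 0.238 CPM in the deepest library and 0.661 CPM in the shallowest (3 counts). *Muc20* had between 0 and 3 counts in a library and was not tested.

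**Figure D1:**
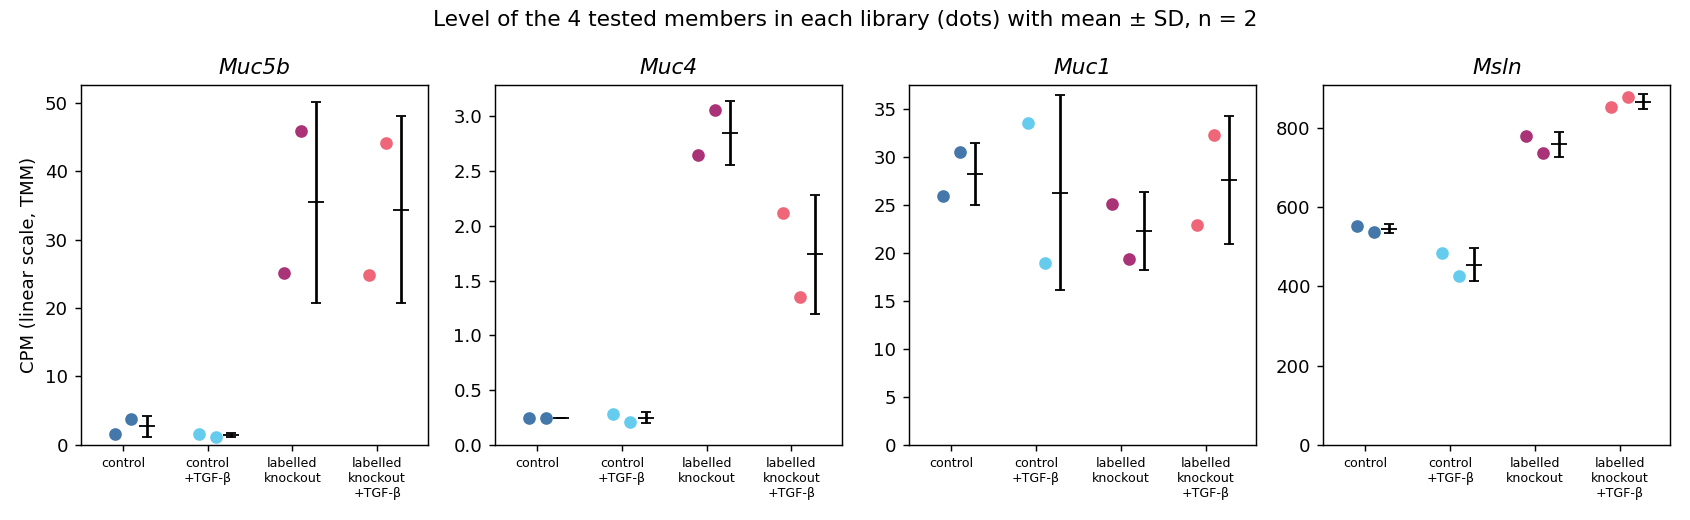
Level in CPM (linear scale, TMM library sizes) of Muc5b, Muc4, Muc1 and Msln in each of the 8 libraries (dots, 2 in each group) with the mean ± SD beside them. For Muc5b, Muc4 and Msln every library labelled knockout lay above every control library, whereas the dots of Muc1 overlapped among the TGF-β-treated libraries.

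*Muc5b* (chr7:149024975-149058990, plus strand, 50 exons) was far higher in libraries labelled knockout. Untreated control libraries held 1.57 and 3.78 CPM, against 25.1 and 45.9 CPM in their counterparts labelled knockout. After TGF-β control cells held 1.59 and 1.16 CPM, against 24.8 and 44.1 CPM under the knockout label. Even the lowest library labelled knockout lay above the highest control library, 6.64-fold without and 15.6-fold with TGF-β. The log2 fold change between labels was 3.74 ± 0.47 (SE; 13.3-fold) in untreated and 4.62 ± 0.50 (24.6-fold) in treated cells. Control replicate 2 carried much of the untreated control level, and without it the untreated log2 fold change was 4.50. In bulk RNA, fewer cells of a type and less RNA per cell cannot be told apart, here and for every gene below.

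*Muc4* (chr16:32735972-32782477, plus strand) was near the limit of detection in control cells. It had 2 counts in both untreated and 3 and 2 counts in the treated control libraries, against 12 and 23 in the untreated and 26 and 17 in the treated libraries labelled knockout. In CPM these were 0.241 and 0.244, 0.281 and 0.212, 2.65 and 3.06, and 2.12 and 1.35, with no overlap between labels. The ratio of summed counts per library size was 12.0 in untreated cells, with a 95% exact interval of 4.28 to 46.3, and 6.96 (2.76 to 22.5) in treated cells. Intervals on counts cover counting error only. *Muc4* passed the filter on low counts only through the libraries labelled knockout. Its last 4973 genomic bases overlap *Muc20* on the opposite strand. Of the 11757 exonic bases of *Muc4*, 627 are also exonic in *Muc20*. Because no source used here says whether counting used strand, reads from this shared stretch could not be assigned with certainty.

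*Msln* (chr17:25885559-25891272, minus strand) differed by less but with little spread. Control libraries held 554 and 538 CPM untreated, and 485 and 426 CPM after TGF-β. In libraries labelled knockout it was 781 and 737 CPM without and 854 and 880 CPM with TGF-β. All 4 libraries labelled knockout exceeded all 4 control libraries. The log2 fold change between labels was 0.47 ± 0.13 (1.39-fold) in untreated and 0.93 ± 0.13 (1.90-fold) in treated cells.

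*Muc1* (chr3:89032979-89037303, plus strand) stood at similar levels in all groups. It was at 25.9 and 30.5 CPM in untreated and 33.5 and 19.0 CPM in treated control libraries, and at 25.1 and 19.4 CPM in untreated and 22.9 and 32.3 CPM in treated libraries labelled knockout. The untreated groups were just separate and the treated groups overlapped. Its log2 fold change was -0.35 ± 0.30 in untreated and 0.071 ± 0.29 in treated cells.

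Counted over the members, *Muc4* and *Muc5b* passed the thresholds for a call between genotypes (adjusted p below 0.05 and absolute log2 fold change above 0.5) in untreated cells, and these and *Msln* in treated cells, where 1.83% and 15.0% of all 13028 genes passed. The choice of members used this contrast, and nothing is read from these counts. All 4 tested members in untreated cells and 3 in treated cells, all but *Muc1*, had libraries that did not overlap between labels, as had 51.9% and 55.8% of all tested genes.

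**Figure D2:**
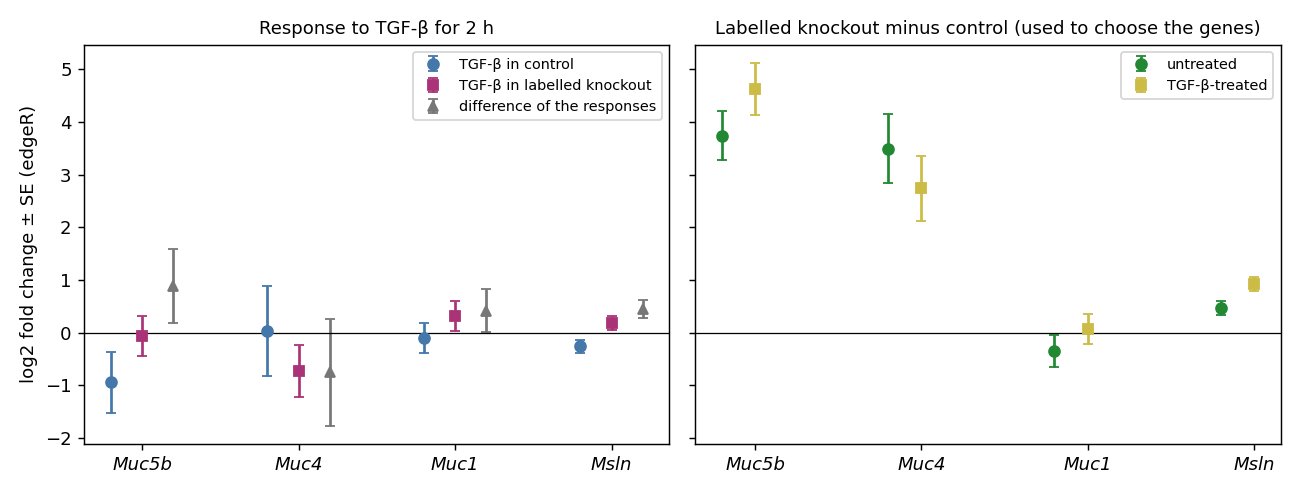
Log2 fold change ± SE (edgeR) of the 4 tested members. The left panel plots the response to TGF-β in control cells, in libraries labelled knockout and the difference of both responses, and the right panel plots libraries labelled knockout against control, the contrast used to choose the genes. No response to TGF-β on the left passed the test, and Muc5b and Muc4 stood highest on the right.

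The response to 2 h of TGF-β was not used in the choice and was tested. No member passed the test in control cells (0 of 4 tested, against 9.16% of all tested genes) or in libraries labelled knockout (0 of 4, against 6.82%), by edgeR's quasi-likelihood test with Benjamini-Hochberg adjustment, and none by DESeq2. At an unadjusted p under 0.05 the count was also 0 in both. The log2 fold change of *Msln* was -0.26 ± 0.13 in control cells (adjusted p = 0.217, edgeR) and 0.19 ± 0.13 in libraries labelled knockout (adjusted p = 0.412, edgeR), and in neither did treated and untreated libraries overlap. The 2 responses of *Msln* differed by 0.45 ± 0.18, with an unadjusted p of 0.0301 and an adjusted p of 0.518 in edgeR's interaction test, so this difference did not pass.

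For *Muc5b* the response was -0.94 ± 0.58 in control cells (edgeR adjusted p = 0.334), where the libraries overlapped, and -0.055 ± 0.38 in libraries labelled knockout (adjusted p = 0.954). *Muc4* gave -0.72 ± 0.49 on the log2 scale in libraries labelled knockout, with no overlap and an edgeR adjusted p of 0.425, and its 2 to 3 counts per control library left the response there undetermined (0.03 ± 0.85). *Muc1* gave -0.10 ± 0.29 in control cells (edgeR adjusted p = 0.858) and 0.32 ± 0.29 in libraries labelled knockout (adjusted p = 0.567). The libraries of 1 member in control cells and 2 in libraries labelled knockout did not overlap between treatments, against 53.7% and 56.6% of all tested genes. The interaction called 0 of 4 members and 0 of 13028 genes (0.0%) in edgeR, where 1 member and 1134 genes had an unadjusted p under 0.05. DESeq2 called 0 members and 30 genes, but it gave no adjusted p for *Muc4* and *Muc5b*, so these members could not be called. With 2 libraries in a group, a response that was not called may still be present. On simulated data, 52 of 100 genes changed by 1 on the log2 scale were called in the control comparison. In libraries labelled knockout 57 of 100 were called. Smaller changes and the interaction were not simulated.

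The make-up of the mucin counts is given as a description, since *Muc5b* was chosen for its difference between labels and its share restates it. Over 12 mucin genes of the table, *Muc5b* held 5.53% of the 235 mucin counts of control replicate 1 (95% exact interval 2.98 to 9.27%) and 10.7% of 289 in replicate 2 (7.41 to 14.9%). In TGF-β-treated control cells its share was 4.47% of 380 (2.63 to 7.07%) and 5.70% of 193 (2.88 to 9.97%). In untreated libraries labelled knockout the share was 45.8% of 249 counts (39.5 to 52.2%) and 62.5% of 552 (58.3 to 66.6%), and in treated ones 47.9% of 634 (44.0 to 51.9%) and 54.8% of 1012 (51.7 to 57.9%). *Muc1*, at 19.0 to 33.5 CPM over the 8 libraries, held 86.5 to 93.9% of the mucin counts in control libraries and 26.4 to 45.8% in libraries labelled knockout. Per library size, the mucin sum was 20.4 to 35.6 CPM in the 4 control libraries and 51.7 to 80.4 CPM in the 4 labelled knockout.

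**Figure D3:**
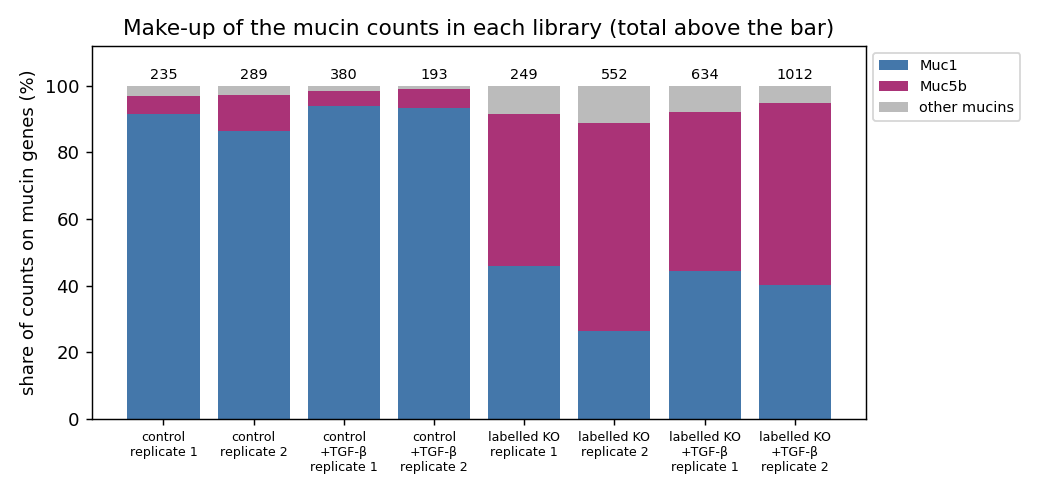
Share of the counts on 12 mucin genes (percent) that fell on Muc1, Muc5b and the other mucins in each of the 8 libraries, with the total of mucin counts above each bar. Muc1 filled 86.5 to 93.9% of each control bar, and Muc5b filled 45.8 to 62.5% of each bar labelled knockout.

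Among the other gel-forming mucins, *Muc5ac*, the second secreted mucin of the airway, lies 19838 bases from *Muc5b* and was the only non-member to pass the filter. It had 1 and 3 counts in untreated and 0 in both treated control libraries, against 9 and 37 in untreated and 16 and 25 in treated libraries labelled knockout. The ratio of summed counts per library size was 15.7 in untreated cells (95% exact interval 5.74 to 60.1), where edgeR's adjusted p was 0.0637. In treated cells the level was at least 5.50-fold higher than 3 counts per control library, and the gene was called there (edgeR, adjusted p = 0.0135). *Muc5ac*, too, passed the filter only through the libraries labelled knockout. That call was lost without treated replicate 2 of the libraries labelled knockout, with an edgeR adjusted p of 0.0679. *Muc2*, the main intestinal gel-forming mucin, had 0 counts in the control libraries and at most 3 in the others, and *Muc6* and *Muc19* had 0 throughout. Of the membrane mucins, *Muc15* had 0 counts throughout and *Muc13*, a mucin of the gut, had at most 4. Among the mesothelin relatives, *Mslnl* and *Strc* had at most 2 counts and *Otoa* at most 7.

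Apart from *Muc5ac* and *Mtx1*, no neighbour among the 3 nearest tested genes on each side of a member was called between labels, where 1.83% untreated and 15.0% treated of all tested genes were called. After TGF-β, *Ap2a2* near *Muc5b* was called higher in libraries labelled knockout (0.77), and *Trim46* near *Muc1* (-1.02) and *Rpusd1* (-1.28) and *Chtf18* (-1.03) near *Msln* were called lower in control cells, *Chtf18* also in libraries labelled knockout (-0.97). *Tollip*, an adaptor of innate immune signalling 1728 bases beyond *Muc5b*, had a log2 fold change between labels of 0.023 in untreated and -0.045 in treated cells, at 120 and 122 CPM in the untreated groups. The other 4 neighbours of *Muc5b*, *Ap2a2*, *Chid1*, *Mob2* and *Dusp8*, were between -0.41 and 0.58, and none was called. None of the 6 neighbours of *Muc4*, which include the transferrin receptor gene *Tfrc* (-0.54 and -0.68) and the kinase gene *Tnk2* (-0.0097 and 0.53), and none of the 6 around *Msln* was called between labels. Near *Muc1*, *Mtx1*, a mitochondrial import gene, was called lower in treated cells (-0.64).

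Whole chromosomes also differed in median. The median log2 fold change between labels was -0.34 in untreated and in treated cells over 641 tested genes of chromosome 3, which carries *Muc1*, and -0.25 and -0.14 over 943 genes of chromosome 7, which carries *Muc5b*. It was 0.053 and -0.05 on chromosome 16, 0.065 and 0.052 on chromosome 17, and 0.018 and -0.012 over all tested genes. The part of these shifts in the members' values was not tested.

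**Figure D4:**
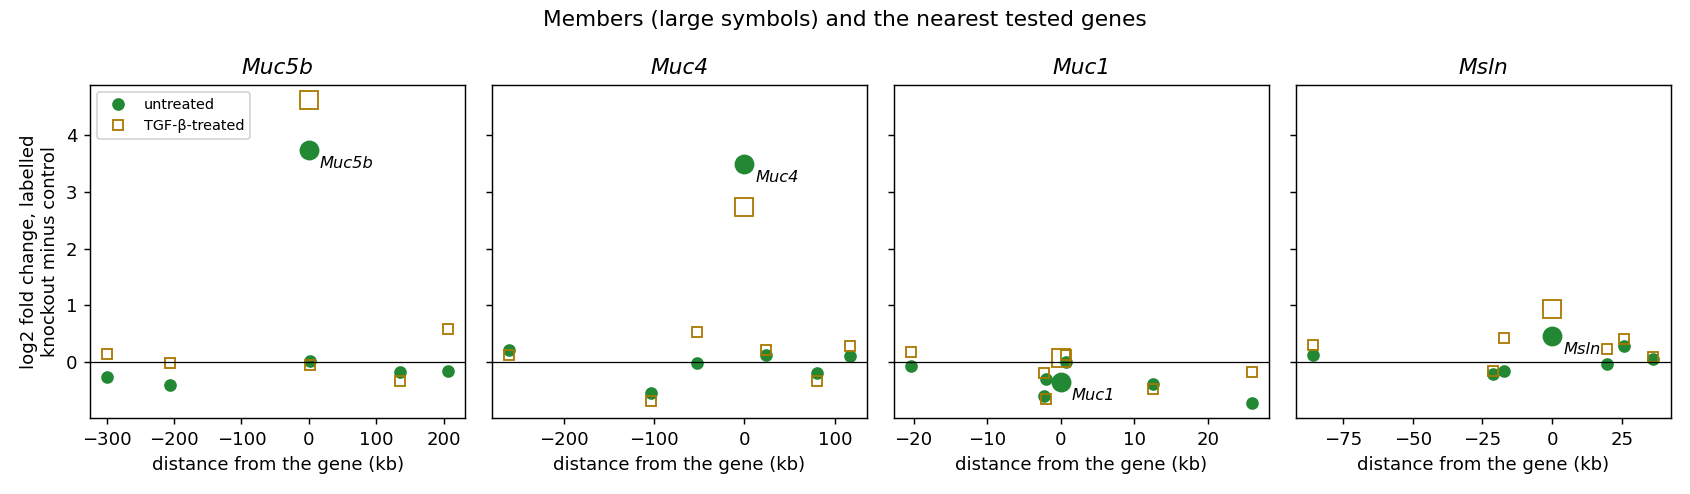
Log2 fold change of libraries labelled knockout against control for Muc5b, Muc4, Muc1 and Msln (large symbols) and their nearest tested genes (small symbols), by distance from the gene in kb, without TGF-β (filled circles) and with it (open squares). Muc5ac, whose treated control libraries had 0 counts, is not drawn. The small symbols around Muc5b lay between -0.41 and 0.58.

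Across the 8 libraries, the genes whose log2 CPM ran most like *Muc5b* were *Prune2* (Pearson r = 0.987), *Glg1*, a Golgi glycoprotein gene (0.982), and *Clmn* (0.981). *Prune2* had means of 1.03 and 0.434 CPM in untreated and treated control cells and 54.0 and 38.8 CPM in libraries labelled knockout. Nearest to *Msln* were *Lgals3bp*, a secreted galectin-binding glycoprotein (0.991), *Ldlrad3* (0.989) and *Dcaf11* (0.988), and nearest to *Muc4* were *Acot1*, an acyl-CoA thioesterase (0.993), *Gm16178* (0.989) and the intestinal cadherin *Cdh17* (0.988). *Muc1* ran with *Ugcg*, the glucosylceramide synthase (0.957), whose means were 40.7, 39.8, 34.5 and 37.9 CPM over the groups. Between members, r was 0.942 for *Muc5b* and *Msln*, 0.939 for *Muc5b* and *Muc4* and 0.878 for *Muc4* and *Msln*, and between -0.30 and 0.0321 for *Muc1* with each of the others. These values describe 8 libraries in 4 groups that share the label contrast, and the libraries are not independent points.

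Some enzymes that build the O-glycans of mucins were called after TGF-β. Of 5 tested enzymes from a list of those that add sialic acid or fucose, 2 rose in control cells and 3 in libraries labelled knockout, and none fell, where 9.16% and 6.82% of all tested genes were called. All 5 were sialyltransferases, and their median log2 fold change was 0.74 and 1.31 against 0.016 and 0.00 over all tested genes. *St3gal2*, a sialyltransferase that caps core glycans, rose from 39.4 and 41.6 CPM to 110 and 86.8 CPM in control cells and from 48.3 and 56.6 to 134 and 143 CPM in libraries labelled knockout (log2 fold changes 1.28 and 1.40, edgeR adjusted p = 0.00277 and 0.00187). *St6galnac4* rose by 2.35 and 2.57 (edgeR adjusted p = 0.0172 and 0.00565), from 1.21 and 0.732 to 6.75 and 3.17 CPM in control cells. *St3gal1* gave 0.74 in control cells (edgeR adjusted p = 0.146) and rose by 1.31 in libraries labelled knockout (adjusted p = 0.0306). Without control replicate 1, *St3gal2* in control cells had an edgeR adjusted p of 0.0502 at 1.24. The calls of *St6galnac4* were lost without either untreated library of the same label, with log2 fold changes between 2.04 and 2.76 and edgeR adjusted p between 0.0668 and 0.119, and that of *St3gal1* in 5 of 8 omissions, between 0.83 and 1.47 (adjusted p 0.0538 to 0.227).

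Of 14 tested enzymes that start O-glycans or build their cores, 1 rose and 1 fell after TGF-β in control cells and none was called in libraries labelled knockout, with medians of 0.26 and 0.038, again beside 9.16% and 6.82% of all tested genes. *Galnt3*, which attaches the first sugar, was at 45.8 and 50.9 CPM before and 69.6 and 82.9 CPM after TGF-β in control cells (0.66, edgeR adjusted p = 0.0424). *B3gnt3*, which extends the core with N-acetylglucosamine, fell from 71.9 and 65.2 to 46.9 and 39.8 CPM in control cells (-0.66, edgeR adjusted p = 0.0276) and was at 106 CPM in both libraries labelled knockout before and at 110 and 101 CPM after it (-0.0082, adjusted p = 0.982). The difference between these 2 responses of *B3gnt3* was 0.65 ± 0.21, with an edgeR adjusted p of 0.486 in the interaction. The call of *Galnt3* was lost in 7 of 8 omissions of 1 library (0.53 to 0.74, edgeR adjusted p 0.0568 to 0.27), all but that of treated control replicate 1, and that of *B3gnt3* in 5 of 8 (-0.73 to -0.55, adjusted p 0.0625 to 0.203).

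Between labels, no enzyme of either list was called in untreated cells. In treated cells, *B3gnt3* was higher by 1.28, *Gcnt1*, which builds branched cores, by 0.85, *St6galnac4* by 2.06, *St3gal1* by 1.01 and *St6galnac6* by 0.71 in libraries labelled knockout (edgeR adjusted p = 0.00151, 0.0443, 0.00776, 0.0437 and 0.0472). These were 2 of the 14 core enzymes, whose median was -0.083, and 3 of the 5 sialyltransferases, whose median was 0.71, and no call was lower, where 15.0% of all tested genes were called. The calls of *B3gnt3* and *St6galnac4* held in all 8 omissions of 1 library, whereas those of *Gcnt1* and *St6galnac6* were lost in 7 and that of *St3gal1* in 6, at log2 fold changes between 0.49 and 1.01 and edgeR adjusted p between 0.0582 and 0.319.

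Of 29 genes of the mucous secretory programme, 10 were tested, as were 13028 of all 37310 genes, and 17 had at most 3 counts in every library. The tested ones included general genes of the secretory pathway such as the chaperone gene *Pdia3* (322 to 640 CPM) and the vesicle gene *Vamp8* (104 to 179 CPM). *Spdef*, the factor that drives goblet cells, *Agr2*, which folds mucins, and the trefoil factors *Tff1*, *Tff2* and *Tff3* were at 0 in all 8 libraries. After TGF-β 1 gene rose and 1 fell in each genotype, and the same 2 genes were called in both, beside 9.16% and 6.82% of all tested genes. *Foxa2*, a forkhead factor of endoderm, fell from 52.7 and 53.5 to 17.9 and 17.8 CPM in control cells and from 57.3 in both libraries to 23.4 and 18.7 CPM in those labelled knockout (-1.57 and -1.45, edgeR adjusted p = 0.00116 and 0.00169). *Xbp1*, a factor of the unfolded protein response, rose by 0.96 and 1.04 (edgeR adjusted p = 0.0109 and 0.00825). The calls of *Foxa2* held in all 8 omissions of 1 library. Those of *Xbp1* were lost without either untreated control library (0.92 to 1.00, edgeR adjusted p 0.0711 to 0.122) and, in the other genotype, without untreated replicate 1 (0.89, adjusted p = 0.101). Over the 10 genes the median was 0.17 after TGF-β in control cells, or -0.14 with groups at 0 set to 3 counts, and 0.50 in libraries labelled knockout.

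Between labels, none of the 10 was called in untreated cells and 2 were higher in treated cells, where 15.0% of all tested genes were called. Both had 2 or fewer counts in every control library and passed the filter only through the libraries labelled knockout. *Bcas1* had 0 counts in both treated control libraries and 19 and 26 in those labelled knockout, at least 6.04-fold higher than 3 counts per library (edgeR adjusted p = 0.0133). *Creb3l1*, a membrane-bound transcription factor of secretory cells, had 2 counts summed over the treated control libraries and 45 over those labelled knockout, a ratio of 18.2 with a 95% exact interval of 4.76 to 155 (edgeR adjusted p = 0.0197). The call of *Bcas1* was lost without treated replicate 2 of the label (edgeR adjusted p = 0.0731), and that of *Creb3l1* without any of the 4 treated libraries (log2 fold change 3.95 to 4.09 against 4.01, adjusted p 0.0522 to 0.106). *Foxj1*, the factor of ciliated cells, was at 1.21 and 2.44 CPM in untreated and 6.93 and 4.34 CPM in treated control cells, at 4.19 and 15.2 CPM in untreated and 18.2 and 15.4 CPM in treated libraries labelled knockout, and was not called in any pairwise comparison, while 5 of 7 airway markers, such as *Scgb1a1*, were at 0.

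Among 7 tested mucin-like membrane glycoproteins, none was called after TGF-β, where 9.16% and 6.82% of all tested genes were, although *Parm1* (0.49 in libraries labelled knockout, edgeR adjusted p = 0.102) was called without the filter (0.56, adjusted p = 0.0213) and without either treated control library (0.52, adjusted p = 0.0416 and 0.0425). *Parm1* was at 107 and 114 CPM in untreated control libraries and 219 and 265 CPM in those labelled knockout, and at 109 and 136 against 358 and 325 CPM after TGF-β (1.14 and 1.48, edgeR adjusted p = 0.0103 and 0.00112). *Podxl*, podocalyxin, an anti-adhesive sialomucin, was higher in treated cells (1.14, edgeR adjusted p = 0.0199). These were 1 of 7 untreated and 2 of 7 treated, beside 1.83% and 15.0% of all tested genes. The treated call of *Parm1* held in all 8 omissions, whereas its untreated call was lost without either control library or without replicate 2 of the label (0.99 to 1.18, edgeR adjusted p 0.0913 to 0.128), and that of *Podxl* without replicate 2 of either treated group (0.83 to 0.89, adjusted p 0.0645 to 0.119). Of 8 tested sheddases and galectins, *Mmp14*, a membrane-type protease, rose after TGF-β in libraries labelled knockout (0.66, edgeR adjusted p = 0.025) and gave 0.42 in control cells (adjusted p = 0.0974). It was also higher in treated cells of that label (0.68, edgeR adjusted p = 0.0145), and no other gene of these 8 was called in either comparison, where 6.82% and 15.0% of all tested genes were. The first of these calls was lost without any of the 4 libraries compared (0.63 to 0.71, edgeR adjusted p 0.0587 to 0.177) and the second without treated replicate 2 of the label (0.68, adjusted p = 0.0742).

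Mesothelial markers varied in level and direction. *Wt1*, *Calb2* and *Gpm6a* were at 0 in all 8 libraries, and 5 of the 10 markers exceeded 3 counts in any library. Their summed level, most of it the keratin *Krt19*, higher like *Msln* in every library labelled knockout but not called, was 1040 to 1160 CPM in the 4 control libraries and 1300 to 1390 CPM in the 4 labelled knockout. *Bnc1*, basonuclin, was lower in libraries labelled knockout by log2 fold changes of -3.30 and -2.32 without and with TGF-β, and *Upk1b*, a uroplakin, by -3.18 and -1.69, the opposite direction to *Msln*. These 2 of the 4 tested markers were called in every pairwise comparison, beside 9.16%, 6.82%, 1.83% and 15.0% of all tested genes in the order of control and knockout label after TGF-β and of untreated and treated labels. Both rose after TGF-β, *Bnc1* by 1.60 in control cells and 2.58 in libraries labelled knockout (edgeR adjusted p = 0.00335 and 9.22e-04), and *Upk1b* by 1.10 and 2.59 (adjusted p = 0.0454 and 0.00623). Without control replicate 1 the *Bnc1* response in control cells had an edgeR adjusted p of 0.0516. The response of *Upk1b* was lost in control cells in 5 of 8 omissions (0.89 to 1.17) and in libraries labelled knockout without either untreated one (2.32 to 2.82), and its genotype calls were lost without replicate 2 of the label (-2.90 untreated and -1.39 treated, adjusted p = 0.0994 and 0.0591). Of 5 tested epithelial markers, 2 were called after TGF-β in control cells and 1 between treated labels, and of 2 tested basal markers 1 after TGF-β in each genotype and 1 between treated labels, beside the same shares of all genes. Among epithelial keratins, *Krt18* and *Krt8* rose after TGF-β in control cells by 0.96 and 0.65 (edgeR adjusted p = 0.0295 and 0.0472) and gave 0.48 and 0.58 in libraries labelled knockout (adjusted p = 0.229 and 0.0792), and both calls were lost in 5 of 8 omissions (0.42 to 0.97, adjusted p 0.0602 to 0.202). The basal keratin *Krt14* rose by 2.33 and 3.66 (edgeR adjusted p = 0.00304 and 6.82e-04), and both calls held in all 8 omissions. Between treated labels, *Cdh1*, E-cadherin, was higher by 0.61 and *Mylk*, a myosin kinase of contractile cells, by 0.95 (edgeR adjusted p = 0.0433 and 0.0114). The call of *Cdh1* was lost in 6 of 8 omissions (0.49 to 0.75, edgeR adjusted p 0.0536 to 0.226) and that of *Mylk* without treated replicate 2 of the label (0.90, adjusted p = 0.0624). The part of these markers in the members' values was not tested. Fibroblast markers summed to 0.797 to 4.85 CPM and immune and endothelial markers to 2.62 to 5.32 CPM over the 8 libraries.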

How the data were processed

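Whole-number counts of reads per gene, deposited by the authors in 1 table for the 8 libraries without normalization, were used. By the study's methods, reads were aligned with subjunc of Rsubread to the mm10 and mm9 assemblies and duplicates were removed, which can lower the counts of abundant transcripts such as *Msln*. The submitters' processing notes name HISAT2, limma and mm10, without roles. Study and labels also differ on the library kit and read layout. Neither the tool that counted reads nor its use of strand is given in the sources used here. Gene identifiers and their order matched GENCODE vM1 (NCBIM37), which gave symbols, positions and lengths. Promoter and transcript sequences came from this release. No deposited column was left out, and groups were taken from the sample titles.

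Library totals ranged from 4297832 to 13574397 counts, so that 3 counts, the floor used here, equalled 0.238 to 0.661 CPM. Counts were normalized with TMM and tested with edgeR 4.0.16 in R 4.3.3. The 13028 genes that passed filterByExpr over the 4 groups were fitted with glmQLFit on all 8 libraries, without a block, and contrasts were tested with glmQLFTest and Benjamini-Hochberg adjustment over all of them. Calls needed an adjusted p below 0.05 together with an absolute log2 change above 0.5, the interaction by the adjusted p alone. The SE is the absolute log2 fold change divided by the square root of F. The common biological coefficient of variation was 0.18, with 4 residual and 5.5 prior degrees of freedom. Ratios of summed counts carry exact binomial 95% intervals. Correlations used log2 CPM with a prior count of 2.

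On simulated data with 200 changed genes, not all of which passed the filter, 12758 genes were tested in the control comparison, and 52 of 100 genes changed by 1 and 88 of 100 changed by 2 on the log2 scale were called, and 3 of 12561 unchanged genes. In libraries labelled knockout these were 57, 89 and 11 of 12559.

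Alternatives were DESeq2 1.42.0, RLE normalization, no filter, a minimum mean of 10 counts, a block for the replicate number, only the 4 libraries compared, no fold threshold, and leaving out each library. The members and the gene lists were chosen with earlier results of these data known. Named genes were the members, the genes of the lists called in a pairwise contrast, the 3 genes most correlated with each tested member and its 3 nearest tested genes on each side. *Mal2*, *Fam111a* and *Foxj1* were named after their values were seen, as were genes at 0 given as examples.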

Additional observations from a re-analysis of the deposited data

How the results depend on the processing

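The count of members called after TGF-β, 0 in control cells, in libraries labelled knockout and in the interaction, stayed at 0 under every alternative run. Over these, edgeR and DESeq2 adjusted p ranged from 0.111 to 0.535 for *Msln* and from 0.111 to 0.922 for *Muc5b* in control cells, whose *Muc5b* response lay between -1.44 and -0.17. Not every run could call each member. With only the 4 libraries compared, 3 members were tested in control cells, without *Muc4*. In the interaction, DESeq2 gave no adjusted p for *Muc4* and *Muc5b*. With 1 library left out, a group of 1 was assumed to vary like the others. The genotype difference then ranged, untreated and treated, from 3.22 to 4.50 and 4.16 to 4.98 for *Muc5b*, 3.37 to 3.59 and 2.39 to 3.04 for *Muc4*, 0.43 to 0.51 and 0.84 to 1.04 for *Msln*, and -0.54 to -0.17 and -0.27 to 0.55 for *Muc1*. Responses that did not pass the test changed sign with a library left out, over a range of -0.58 to 0.25 for *Muc1*, -0.20 to 0.20 for *Muc4* and -0.019 to 0.29 for *Parm1* in control cells, and of -0.50 to 0.46 for *Muc5b* and -0.041 to 0.077 for *B3gnt3* in libraries labelled knockout, where the value without the filter was 0.004 and 0.053.

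The pathway lists held 45 tested genes, 66 without the filter and 41 to 44 with only the 4 libraries compared, and their calls were fewer or more under several settings. After TGF-β they numbered 6 in control cells (10 without the filter, 3 with only the 4 libraries, 1 to 10 with a library left out) and 6 in libraries labelled knockout (10 without the filter, 2 to 8 with a library left out). Between labels they numbered 1 untreated (4 by DESeq2, 5 without the filter, 6 with only the 4 libraries, 0 to 4 with a library left out) and 11 treated (6 with only the 4 libraries, 4 to 15 with a library left out). After TGF-β the fewest came without untreated replicate 1 of the same label, and the 10 in control cells without treated control replicate 1. Between labels, 0 came without either untreated control library or untreated replicate 2 labelled knockout, and 4 of treated cells without treated replicate 2 labelled knockout. The cause of these shifts was not tested.

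Same-numbered libraries deviated with r = 0.297 for control with treated control and -0.00915 within the label knockout (0.098 between untreated and -0.473 between treated labels), and the labels do not say that a number pairs libraries. With the replicate number as a block, calls over the lists were 5 after TGF-β in each genotype, 1 between untreated and 10 between treated labels, and members called after TGF-β stayed at 0. The block removed the calls of *Galnt3*, *Krt8* and *Upk1b* after TGF-β in control cells (0.66, 0.65 and 1.11, adjusted p = 0.0698, 0.0718 and 0.0728) and both calls of *St3gal1* (1.31 and 1.01, adjusted p = 0.0578 and 0.0725). Counting error was wide for *Muc4*, *Muc20*, *Muc5ac*, *Bcas1* and *Creb3l1*, whose control libraries held at most 3 counts each. *St3gal1* in control cells was called without the filter (0.74, adjusted p = 0.00984).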
